A study of Mus musculus with 8 samples.

Results

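Activity-induced genes are genes whose transcription is switched on within minutes to hours when a neuron is excited. The 10 described here are Homer1, Egr1, Egr3, Arc, Fos, Junb, Bdnf, Nr4a1, Nr4a3 and Npas4. They were followed through a table of RNA fragments from Argonaute pulldowns of mouse forebrain. A row of that table is a cluster, that is, a stretch of the genome covered by overlapping reads. A cluster was given to a gene when its 3' UTR, CDS, 5' UTR or intron column named the gene exactly. All 10 genes were named at least once, out of 9962 genes named in the table. They took 39 of its 70142 clusters and 1050 of its 1834586 reads.

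The method was HITS-CLIP, in which RNA is crosslinked by ultraviolet light to the proteins that hold it, pulled down with an antibody against one of them and sequenced. The 5 Flag-Ago2 libraries came from animals carrying Camk2a-cre; Rosa-Stopfl/fl-Flag-Ago2, where Cre driven by the Camk2a promoter opens a FLAG-tagged Argonaute 2 allele under the ROSA26 promoter in excitatory forebrain neurons. The 3 control libraries came from Rosa-Stopfl/fl-Flag-Ago2 mice, which carry the same closed allele without Cre. Mice of both genotypes were 8 to 14 weeks old, each immunoprecipitation used part of a single forebrain, and no stimulus to drive neuronal activity is named in the labels. The table gives 1 read count per cluster and separates neither libraries nor groups. Which libraries entered that count is not given. No value below therefore has a replicate spread, a value in control mice or a test, and no level of the RNA itself was measured.

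The products of these genes fall into 2 kinds. Fos, Junb, Egr1, Egr3, Nr4a1, Nr4a3 and Npas4 are transcription factors that carry the response on to later genes. Arc, Homer1 and Bdnf act at the synapse. Their messages are mostly short-lived, and many 3' UTRs of the class hold elements that shorten RNA life. A miRNA guides Argonaute to a message mainly by its seed, bases 2 to 8 counted from its 5' end, which pairs with a complementary site that lies most often in the 3' UTR. Such pairing lowers translation and stability of the message.

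The table counts, for each cluster and miRNA, the matches to the 6 bases complementary to miRNA bases 2 to 7. These counts were read for 37 miRNA families, most of them known to be abundant in brain. The miRNAs whose sites are shown for Homer1, Arc, Nr4a1 and Egr3 follow, as RefSeq gives them on GRCm38.p6, each 5' to 3' with its seed in capitals.
let-7a-5p: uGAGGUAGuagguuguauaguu
miR-26a-5p: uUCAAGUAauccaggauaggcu
miR-19a-3p: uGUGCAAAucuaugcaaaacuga
miR-135a-5p: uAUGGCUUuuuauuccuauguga
miR-23a-3p: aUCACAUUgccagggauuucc
miR-24-3p: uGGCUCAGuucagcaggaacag
miR-7a-5p: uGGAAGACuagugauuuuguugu
miR-103-3p: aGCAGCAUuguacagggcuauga

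The sites of these miRNAs are printed where each gene is described, in the direction of the message and with the 6 matched bases in capitals. A site is called an 8-mer when the match also takes in miRNA base 8 and has an A opposite miRNA base 1. A 7-mer has one of these additions, written m8 or A1, and a 6-mer has neither. A match is a stretch of letters and does not show which miRNA was bound.

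Clusters in exons named 8 of the 10 genes, and clusters in 3' UTRs named 5 of them. Among 21924 protein-coding genes, 35.7% had an exonic cluster and 21.5% had one in the 3' UTR. Homer1, Egr1, Egr3, Arc and Nr4a1 had 3' UTR clusters. Fos, Junb and Bdnf were named in exons outside the 3' UTR only, and Nr4a3 and Npas4 in introns only. Intron-only clusters named 5 of the 10 genes, against 28.0% of protein-coding genes. The lowest count in the table is 10 reads, so a gene with no cluster may still have had fewer reads at a site.

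**Figure D1:**
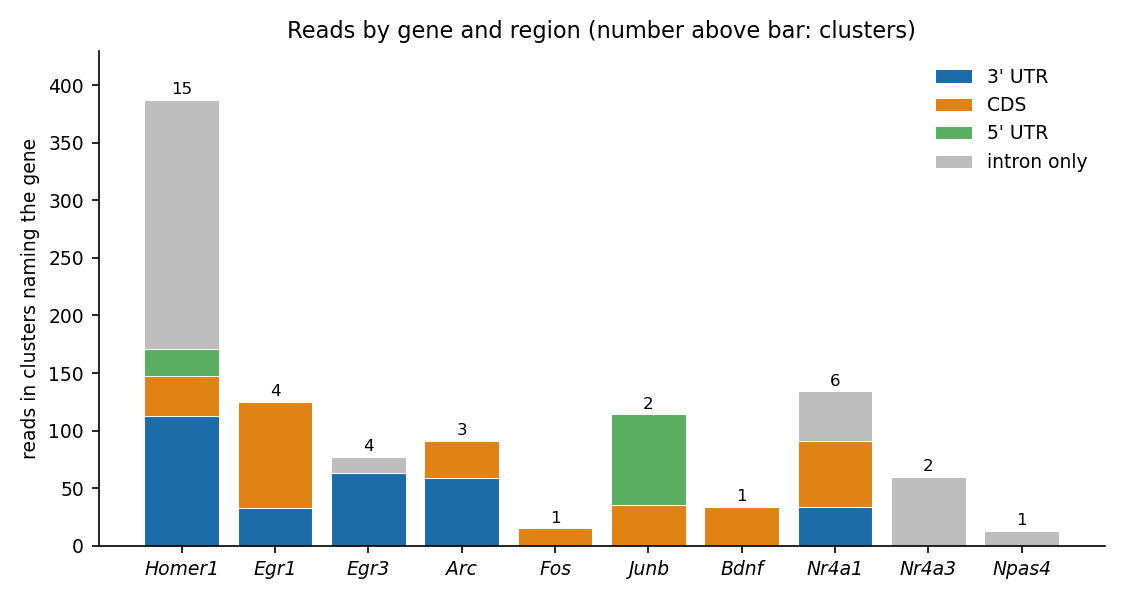
Reads in the clusters of each activity-induced gene (vertical axis, number of reads; 1 bar per gene, coloured by region, with the number of clusters above it). Homer1 has the tallest bar, with 387 reads of which 216 are intronic, and Nr4a3 and Npas4 have intron reads only.

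Exonic reads of the 8 genes ranged between 15 for Fos and 171 for Homer1, with a median of 91, against a median of 49 for the 7837 protein-coding genes that had an exonic cluster. Long messages can collect more reads, so counts were also divided by the length of all annotated exons of the gene. On that scale the 8 genes had a median of 20.1 reads per kb, against 9.80 reads per kb for all genes with an exonic cluster. Junb was at the top with 49.5 reads per kb, followed by Arc with 29.8, Egr1 with 27.9 and Nr4a1 with 25.9. Egr3 and Homer1 both had 14.3 reads per kb, and Fos and Bdnf were below the median of all genes with 6.38 and 5.47 reads per kb. For Homer1 the exon length was 11976 bases, against 5713 bases for its longest transcript, so its place in this order depends on the length used. More reads can come from more RNA or from more binding per RNA, and the table cannot tell these apart.

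**Figure D2:**
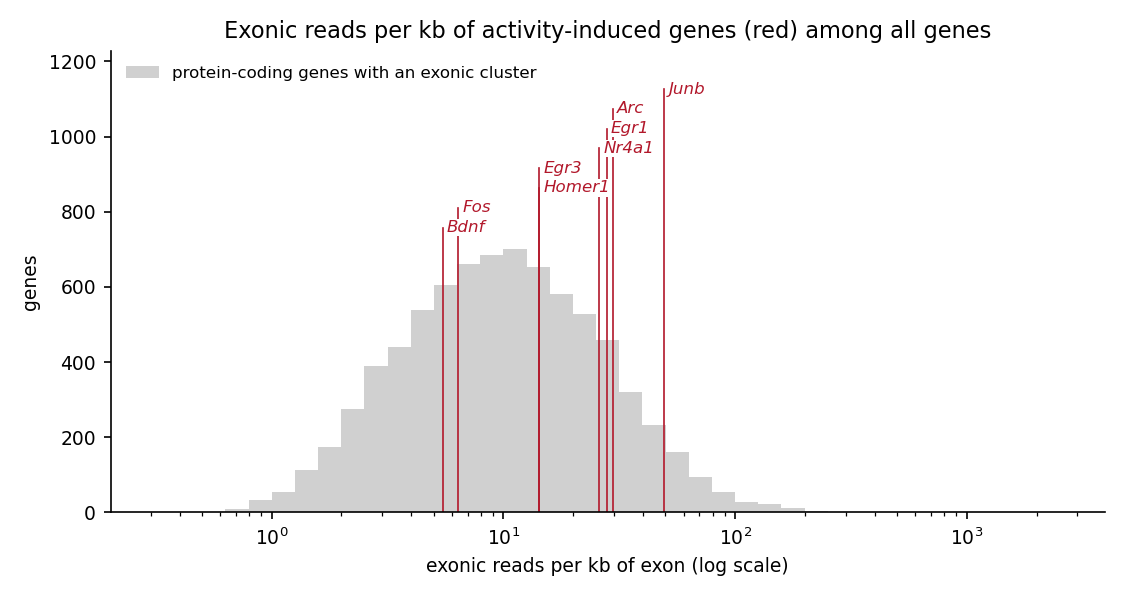
Exonic reads per kb of exon (horizontal axis, log scale) of protein-coding genes with an exonic cluster, drawn as a histogram of genes, with the 8 activity-induced genes that have one as red lines. Junb lies to the right at 49.5 reads per kb, and Fos and Bdnf lie left of the middle at 6.38 and 5.47.

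The exonic reads of the 10 genes were shared almost equally between 3' UTR and coding sequence. The 3' UTR held 12 clusters with 302 reads, or 42.9% of the exonic reads (95% Wilson interval 39.3 to 46.6), against 40.7% (40.6 to 40.8) over all exonic clusters. Coding sequence held 10 clusters with 299 reads, or 42.5% (38.9 to 46.2), against 56.1% over all. The 5' UTR held 2 clusters with 103 reads, or 14.6% (12.2 to 17.4), against 3.23% over all. The 5' UTR share rests on 1 cluster of Junb with 79 reads, and without Junb it was 4.07%. Without Homer1 the 3' UTR share was 35.5%. Counted by clusters in place of reads, the 3' UTR share was 50.0% (31.4 to 68.6), against 40.1% over all exonic clusters. Coding sequence then had 41.7% (24.5 to 61.2) against 56.0%, and the 5' UTR 8.33% (2.32 to 25.8) against 3.86%. Each interval on clusters holds the value over all, so no difference in region was detectable by clusters. The intervals on reads take every read as separate. Reads of the same cluster are not independent and PCR copies may be among them, so these intervals are too narrow.

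The clusters themselves were close in depth to those of other genes. An exonic cluster of these genes held a median of 24.5 reads, between 10 and 79, against a median of 21 over all exonic clusters. No cluster of the 10 genes reached 100 reads. That depth was reached by only 963 of all 70142 clusters, so its absence among 39 clusters says little. The 12 3' UTR clusters had a median of 24 reads and a median width of 147 bases, against 21 reads and 144 bases over all 3' UTR clusters.

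**Figure D3:**
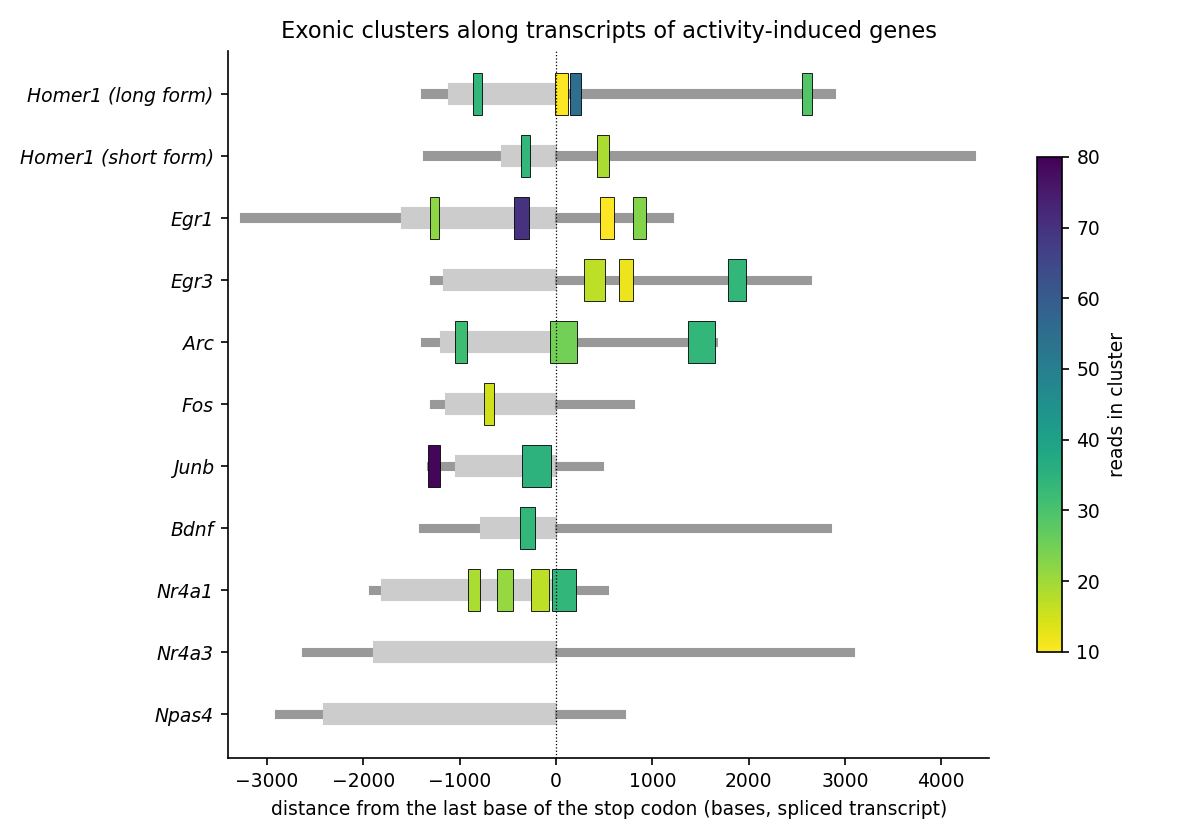
Position of exonic clusters on 1 annotated transcript of each gene (2 for Homer1; horizontal axis, distance in bases from the last base of the stop codon along the spliced transcript), with UTRs as thin and coding sequence as thick grey bars and each cluster coloured by its reads. The 3' UTRs of Fos, Junb, Bdnf, Nr4a3 and Npas4 carry no cluster, and the 5' UTR cluster of Homer1 lies on transcripts not drawn.

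Egr1 and Egr3 encode zinc finger transcription factors of one family, and the clusters that name them lay in different regions. Egr3 (chr14:70077203-70082614, plus strand) had no cluster named as coding, and its 63 named exonic reads lay in 3 clusters of the 3' UTR. A further cluster of 19 reads lies inside an annotated exon of Egr3 but carries no gene name. It is not counted here, and with it the exonic reads would be 82. The deepest of the 3 named clusters, with 34 reads, lay 1788 to 1970 bases past the stop codon and matched none of the 37 families. The other Egr3 clusters, with 17 and 12 reads, carried 3 of the 5 8-mer sites found in the 3' UTR clusters of the 10 genes. Those 3 sites are shown because they have the longest pairing. The first stands at chr14:70080208-70080213, the second at chr14:70080617-70080622 and the third at chr14:70080664-70080669, on the plus strand of GRCm38.
Egr3 site for miR-24, cluster of 17 reads: caggggccgcTGAGCCacgccaagga
Egr3 site for miR-7, cluster of 12 reads: gaggagatggTCTTCCatctgctcct
Egr3 site for miR-103/miR-107, cluster of 12 reads: atgcctcggaTGCTGCagctgcagtg

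The cluster with 12 reads held 3 matches to miR-103/miR-107 and also matched miR-15/miR-16/miR-195, miR-22, miR-23 and miR-29. Of these, each miR-15/miR-16/miR-195, miR-22 and miR-29 match shares bases with a miR-103/miR-107 match, so they are not separate sites. The cluster with 17 reads also matched miR-9, miR-103/miR-107 and miR-132/miR-212. In Egr3, then, the seed matches lay in the shallow clusters and the deepest cluster had none. An intron cluster of 14 reads lay 173 bases from the nearest exon.

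Egr1, in contrast to Egr3, had clusters named as coding. Egr1 (plus strand of chromosome 18, 34859823 to 34864984) had 92 reads in 2 coding clusters and 33 reads in 2 clusters of the 3' UTR. The deeper coding cluster, with 70 reads, held 56.0% of the exonic reads of Egr1 and matched the miR-27 seed. The 3' UTR cluster with 23 reads matched miR-23, miR-129 and miR-181, and the one with 10 reads matched miR-17/miR-20/miR-93 and miR-27. A count of 10 is the lowest the table holds.

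Fos and Junb encode partners in the AP-1 transcription factor, and neither had a 3' UTR cluster. Fos (chr12:85473890-85477273, plus strand, mm10) had a single cluster of 15 reads in its coding sequence, which matched the seeds of miR-15/miR-16/miR-195, miR-138 and miR-181. Its 3' UTR is 815 bases long and holds 17 sites of the families searched, which for whole 3' UTRs leave out miR-124, none of them under a cluster. Of genes with an exonic cluster, 33.9% had fewer reads per kb than Fos. Junb (chr8:84974484-84978718, minus strand) carried 79 reads over its 5' UTR at chr8:84978594-84978748, the deepest exonic cluster of the 10 genes. That cluster matched none of the 37 families, and 125 of its 155 bases lie in an annotated exon. A second Junb cluster of 35 reads lay in the coding sequence and matched miR-22 and miR-103/miR-107.

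Nr4a1 and Nr4a3 encode orphan nuclear receptors, transcription factors without a known classical ligand. Nr4a1 (chr15:101254269-101274795, plus strand) had 91 exonic reads, of which 57 lay in 3 coding clusters and 34 in 1 cluster that runs across the stop codon, between positions -36 and 209 counted from its last base. This cluster covered 38.5% of the 3' UTR of 543 bases. It matched miR-124, whose sequence is not shown here, and let-7. The let-7 site at chr15:101274377-101274382 is a 6-mer, shown because it lies in the only 3' UTR cluster of the gene.
Nr4a1 site for let-7, cluster of 34 reads: aagactgacgTACCTCctcactccag

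The coding clusters of Nr4a1 held 19, 21 and 17 reads and matched miR-193, then miR-124, then miR-34/miR-449, miR-103/miR-107 and miR-218. Its introns held 43 reads in 2 clusters. Nr4a3 (chr4:48045153-48086447, plus strand) had no exonic cluster. Its 60 reads lay in 2 intron clusters, one of 41 reads at 185 bases from the nearest exon and one of 19 reads at 4297 bases. The 3' UTR of Nr4a3 is 3093 bases long and holds 34 sites of the families searched, of which 4 are for miR-132/miR-212, and none lay under a cluster.

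Npas4, a transcription factor of the bHLH-PAS family that is induced by calcium influx, had the fewest reads of the 10 genes. Its 1 cluster (Npas4 at chr19:4984355-4990316, minus strand) held 13 reads in an intron, 131 bases from the nearest exon, and matched miR-219. The 3' UTR of Npas4 holds 11 family sites in 713 bases and no cluster.

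Arc is a postsynaptic protein that takes part in the removal of AMPA receptors from the synapse. Its 91 reads were spread evenly over 3 clusters of 32, 25 and 34 reads (Arc at chr15:74669083-74672570, minus strand). The first lay in the coding sequence and matched miR-19. The second, at chr15:74670960-74671244, spanned the stop codon and began at position -62 from its last base. It matched miR-9, miR-10, miR-26, miR-34/miR-449, miR-138 and miR-193, the last 2 within the coding sequence. The third lay 1369 to 1650 bases past the stop codon, close to the end of the 3' UTR of 1668 bases. Clusters covered 30.2% of that 3' UTR and held 7 of its 20 family sites.

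The sites of the third Arc cluster are shown because it was the deepest of the gene. The let-7 site at chr15:74669135-74669140 is a 7-mer of type A1, the miR-19 site at chr15:74669292-74669297 an 8-mer, and the miR-135 site beside it a 7-mer of type m8.
Arc site for let-7, cluster of 34 reads: cataccatctTACCTCaaagacagat
Arc site for miR-19, cluster of 34 reads: aagtttatttTTGCACaaaagccatg
Arc site for miR-135, cluster of 34 reads: tttgcacaaaAGCCATgacccatact

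Homer1 encodes a postsynaptic scaffold that links metabotropic glutamate receptors, IP3 receptors and Shank proteins. Neuronal activity makes a short form that ends within an intron of the long form and lacks the domain by which long Homer proteins join each other. Homer1 (chr13:93299635-93405129, plus strand) had more clusters than any other of the 10 genes, 15 with 387 reads. Exons held 171 of these reads in 6 clusters, and 9 intron clusters held 216. Per length the order was the reverse, with 14.3 reads per kb of exon and 2.31 reads per kb of intron.

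**Figure D4:**
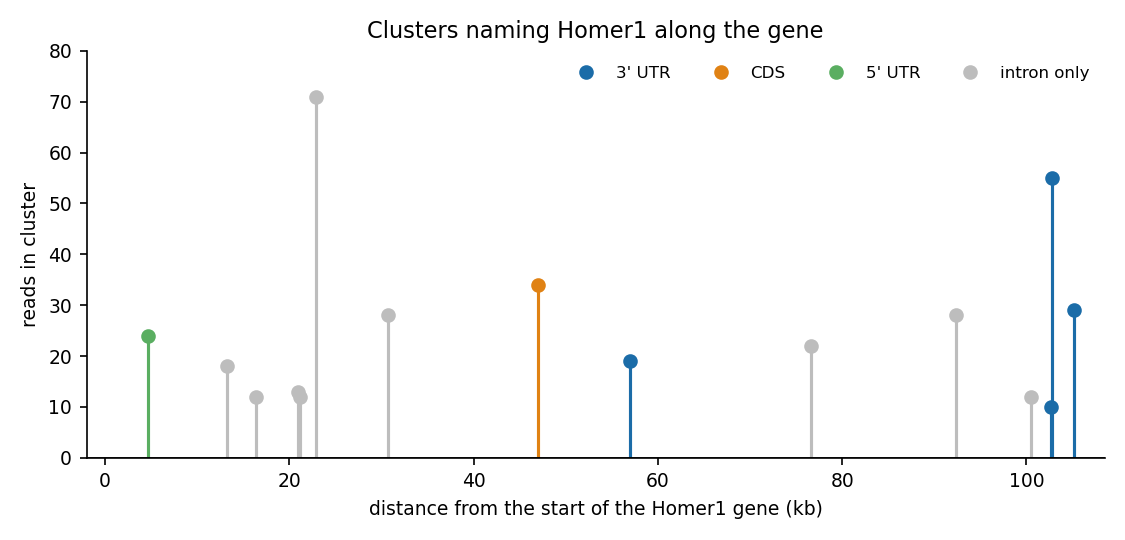
Clusters along Homer1 (horizontal axis, distance in kb from the start of the gene; vertical axis, reads per cluster), with 1 line per cluster coloured by region. The tallest cluster, of 71 reads, is intronic, and the 2 clusters with 10 and 55 reads at the start of the long 3' UTR lie next to each other.

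The long form's 3' UTR of 2900 bases held 3 clusters with 94 reads, or 32.4 reads per kb. The short form's 3' UTR of 4349 bases held 1 cluster with 19 reads, or 4.37 reads per kb. Because the short 3' UTR lies in an intron of the long pre-mRNA, those 19 reads cannot be given to the short form alone. The long 3' UTR was covered at both ends. A cluster of 10 reads crossed the stop codon, one of 55 reads lay 147 to 259 bases past it, and one of 29 reads lay 2550 to 2661 bases past it with a 6-mer match to miR-128.

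The sites of the cluster with 55 reads are shown as those of the deepest 3' UTR cluster of all 10 genes, with the one 8-mer of Homer1, which lies in the short form's 3' UTR at chr13:93356625-93356630. The let-7 site at chr13:93402448-93402453 is a 6-mer and the miR-26 site beside it a 7-mer of type A1, so the let-7 match itself is of the shortest type. In the cluster with 19 reads, the miR-23 match shares bases with one to miR-181.
Homer1 site for let-7, cluster of 55 reads: aactacaaatTACCTCcatgtatatt
Homer1 site for miR-26, cluster of 55 reads: gacatgaaaaACTTGAactacaaatt
Homer1 site for miR-23, cluster of 19 reads: gtaaacatgaATGTGAaatggcacta

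The deepest intron cluster of the 10 genes lay in Homer1, with 71 reads at chr13:93322436-93322540. It was 14076 bases from the nearest exon and matched miR-26, miR-101, miR-125, miR-139-5p and miR-221/miR-222. A coding cluster of 34 reads matched miR-132/miR-212 and carried 4 circRNA identifiers. Such identifiers stood on 4 of the 39 clusters of the 10 genes, against 9059 of all 70142 clusters. All 4 were among the 15 clusters of Homer1, so reads of the linear message and of circular RNA were not separated there. The 5' UTR cluster, with 24 reads, matched miR-23 and miR-181.

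Bdnf, the neurotrophin that signals through the TrkB receptor, had a single cluster of 34 reads in its coding sequence (Bdnf at chr2:109674700-109727007, plus strand). It lay at positions -375 to -220 from the last base of the stop codon and matched miR-9. The long 3' UTR of Bdnf, 2855 bases, holds 37 family sites, among them 3 7-mers for miR-1/miR-206, and none lay under a cluster. Bdnf is a known target of miR-206.

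Among the 12 3' UTR clusters, 25 of the 37 families matched at least once. The clusters held 39 matches in 2122 bases, or 18.4 per kb, against 15.5 per kb over all 9284 3' UTR clusters. The median cluster matched 3 families, against 2 over all, and 1 of the 12 matched none. The 10 coding clusters held 9.33 matches per kb, against 13.7 per kb over all coding clusters.

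Let-7 and miR-23 each matched 3 of the 12 clusters. The let-7 matches lay in the deepest 3' UTR cluster of Homer1 and of Arc and in the only one of Nr4a1. Homer1 had 4 such clusters and Arc 2, so little can be read from these places. A share of 3 in 12 has a Wilson interval of 8.89% to 53.2%, and 4.17% of all 3' UTR clusters held the match. The miR-23 matches, in Egr1, Egr3 and Homer1, have the same interval and compare with 6.64% of all. Both counts depend on the kind of match. With matches of at least 7 bases, let-7 and miR-23 each matched 1 cluster, and with clusters of at least 20 reads let-7 matched 3 and miR-23 matched 1. miR-19 matched 2 of the 12, in Arc and Homer1 (interval 4.70% to 44.8%), against 3.89% of all, and 1 of them had at least 20 reads.

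The next families are among those with the most matched clusters over the whole table. The miR-128 seed matched 1 of the 12 clusters against 13.6% of all, miR-27 matched 1 against 13.3%, and miR-124 matched 1 against 10.3%. miR-103/miR-107 matched 2, both in Egr3, against 9.58% of all. miR-326 matched 0 against 9.61%, and miR-139-5p matched 0 against 8.52%. For let-7, miR-23 and miR-19 the interval lay above the share over all clusters, but this does not show enrichment. The intervals take the 12 clusters as independent, while these came from 5 genes, with 4 in Homer1 and 3 in Egr3. They may therefore be too narrow. Let-7 and miR-23 are also the families with the most matched clusters among the 12, and their counts fell with matches of at least 7 bases. These intervals are not adjusted for the 37 families read, and no test was made.

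**Figure D5:**
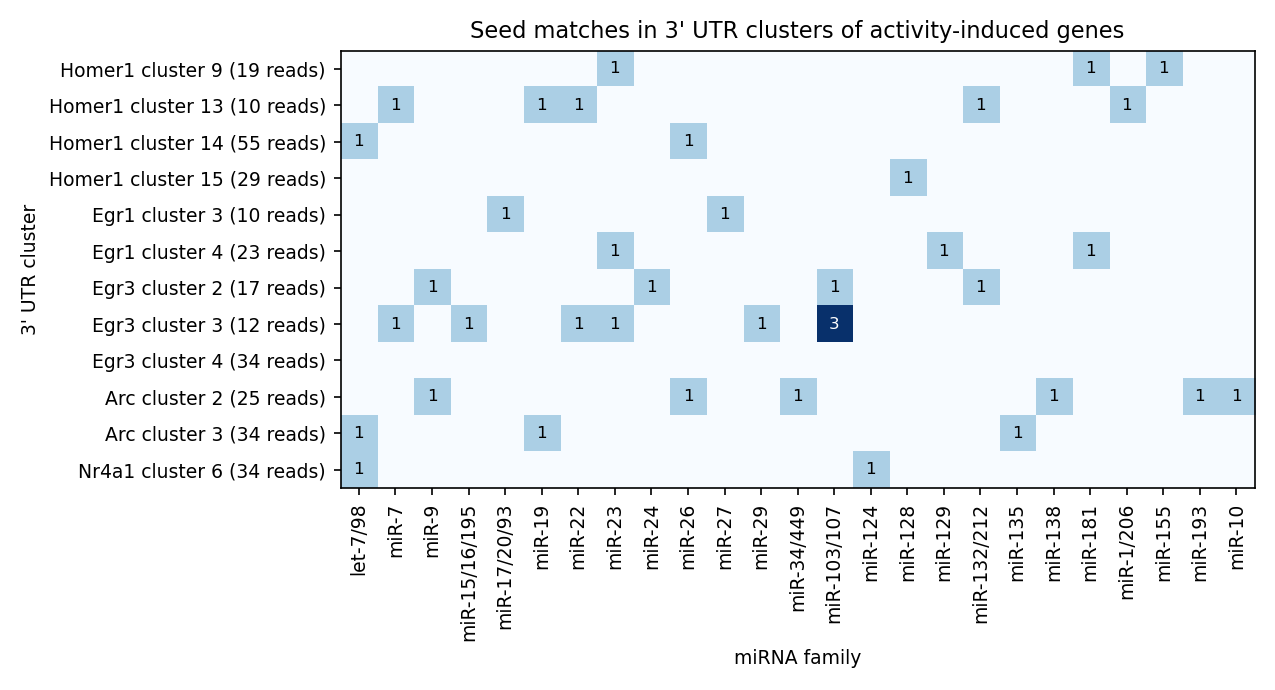
Number of seed matches (colour and digit) of each matched miRNA family (columns) in each 3' UTR cluster of the activity-induced genes (rows, with the reads of the cluster). The let-7 column is filled in the deepest 3' UTR clusters of Homer1 and Arc and in the only one of Nr4a1. The row of the Egr3 cluster with 34 reads is empty.

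Of the 38 sites in these clusters for which a sequence was at hand, 5 were 8-mers, 8 were 7-mers of type m8, 6 were 7-mers of type A1 and 19 were 6-mers. The 8-mers lay in Egr3, Arc and Homer1. Within 25 bases of the cluster centre lay 13 of the 38 sites. The share for sites placed at random was not worked out, so this count does not show gathering at the centre. Site totals of whole 3' UTRs cover 36 of the 37 families and leave out miR-124. Of these sites, clusters held 5 of 12, or 41.7%, in Egr1 and 7 of 20, or 35.0%, in Arc. They held 12 of 36, or 33.3%, in Egr3 and 7 of 43, or 16.3%, in the long form of Homer1. The clusters covered 22.7%, 30.2%, 20.7% and 12.1% of those 3' UTRs in the same order. Nr4a1 had 1 of 5 sites, or 20.0%, under a cluster that covered 38.5% of its 3' UTR. The miR-124 match of that cluster is not counted in this share. A site counted when any of its bases lay under a cluster, and matches that share bases were counted apart. Whether sites gather under clusters was not tested.

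Some coding clusters of the 10 genes also reached into introns. The gene stood in the intron column as well for 5 of 10 coding clusters, or 50.0% (Wilson interval 23.7 to 76.3), against 69.2% of all coding clusters. The interval holds the value of the whole table, so no difference was detectable with 10 clusters.

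Other genes of the response were also in the table. Of 44 other activity-induced genes, 27 had an exonic cluster and 21 one in the 3' UTR, against 35.7% and 21.5% of protein-coding genes. Their median was 19 exonic reads, against 77 for the 10 genes and 0 for all protein-coding genes, when genes without a cluster count as 0. Per kb of exon the medians were 14.3 reads for the 10 genes and 5.04 for the other 44. The deepest of them were Rgs4, a regulator of G-protein signalling, with 261 reads, and the secreted granule proteins Vgf with 215 and Scg2 with 187. The signalling proteins and transcription factors that act upstream of the response had an exonic cluster in 14 of 14 genes. Their median was 135.5 reads, but per kb of exon it was 14.0, close to that of the 10 genes. Camk4, a calcium-dependent kinase, led them with 722 reads, before the calcineurin subunit Ppp3ca with 289 and Mef2c with 238. Of 12 partners and receptors of the 10 gene products, 9 had an exonic cluster, led by the IP3 receptor Itpr1 with 429 reads, Sort1 with 402 and the Bdnf receptor Ntrk2 with 376.

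The labels name Camk2a neurons as the cell type. Marker genes of excitatory forebrain neurons had exonic clusters in 6 of 6 cases, against 35.7% of protein-coding genes. They held 1076 reads in all, 618 of them in Camk2a. Markers of astrocytes had exonic clusters in 5 of 5 cases with 1566 reads, 1105 of them in Slc1a2. The median per gene was 118 reads for these neuron markers and 114 for these astrocyte markers. Markers of oligodendrocytes had exonic clusters in 4 of 5 cases with 615 reads, and of interneurons in 2 of 5 with 263. Endothelial markers had them in 2 of 3 cases with 180 reads, and microglial markers in 3 of 5 with 66. Clusters therefore also named genes of other cell types. Several activity-induced genes are made in glia as well, and the part of such cells in the values above was not tested.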

How the data were processed

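Alignment used BWA and mm10, per the submitters' processing notes. How clusters were called, from which libraries, with what use of the controls and whether PCR duplicates were removed is not given in the sources used here. In all, the authors deposited 1 table of clusters whose read count is a whole number of at least 10, with no normalization named. Per the file headers it also holds gene names by region and 1281 miRNA columns, and 0 columns of a single library among the 8.

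A cluster named in several regions counted once, in the 3' UTR before CDS, CDS before 5' UTR, and any of these before intron. Exonic reads leave introns out. GENCODE M21 (GRCm38, the assembly of mm10) gave exon lengths, transcripts and site sequences, and RefSeq the miRNAs. Recounting seed matches in 18 clusters with complete exon sequence gave 648 of 648 deposited values. The counting was tested on simulated data. Shares carry 95% Wilson intervals. Python 3.11.15, pandas 2.3.3 and scipy 1.17.1 were used.

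The genes and lists were chosen with earlier results of these data known. All 10 genes are named, and of each other list the 3 with the most exonic reads. The 8-mer sites outside the deepest 3' UTR clusters were chosen after their values were seen. Sites in introns and for miR-124 are not printed. A comparison of Flag-Ago2 with control libraries was planned in case the table separated them, and it does not.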

Additional observations from a re-analysis of the deposited data

Results flagged for a closer look

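Reads near 3 of the genes lay in clusters that the table gives to no gene on that strand. They stood out because they are outside the counts above, within a window of 5000 bases chosen after the data were seen. Control mice cannot be set beside them.

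Egr3 had 19 such reads inside its span, in 1 cluster at chr14:70077249-70077435 whose 187 bases all lie in an exon of GENCODE M21, and which matched miR-129. Upstream of Egr3 lay 16 reads in 1 cluster, 61 bases from the annotated start, with a match to miR-27. Downstream of Homer1 lay 55 reads in 3 clusters, at 119, 1688 and 3721 bases past the annotated end. They held 10, 19 and 26 reads and matched miR-135, then miR-101 and miR-132/miR-212, then miR-7. Inside the span of Nr4a1 lay 51 reads in 2 clusters of 14 and 37 reads, with no base in an annotated exon. Both matched miR-132/miR-212. Whether these reads belong to the named genes was not tested.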

How the results depend on the processing

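No paired analysis was possible because the table pools its libraries and no result comes from a test. With only clusters of at least 20 reads, 7 of the 10 genes had an exonic cluster and 5 a 3' UTR cluster, and the 3' UTR share was 40.0%. With that minimum the median fell to 15.7 reads per kb, against 20.1, and pairs of a 3' UTR cluster and a matched family numbered 17, against 37. With the longest transcript as the length, the median was 28.8 reads per kb. With regions taken in the order CDS, 5' UTR, 3' UTR, the 3' UTR share was 33.1%, against 42.9%. Requiring matches of at least 7 bases left 19 pairs. That count leaves out miR-124, whose sequence was not at hand and which gave 1 of the 37 pairs. Let-7, in Arc, and miR-23 then matched 1 cluster each, in place of 3. miR-23 also fell to 1 with the minimum of 20 reads. With introns counted, all 10 genes had a cluster. Leaving out clusters named in another region left 4 genes with a 3' UTR cluster. Of values for single genes and families, 50 stayed within counting error or 1.5 times and 47 moved, mostly under the higher read minimum and the longer match. Leaving out clusters that name more than 1 gene gave 10 of the 50. It could change nothing, because no cluster of the 10 genes names another gene. Exon overlap in GENCODE M21, an alternative added after the data were seen, gave Egr3 82 exonic reads, against 63. With 10 to 79 reads in an exonic cluster, small differences between clusters are not resolved.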

Other observations

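Close relatives of the genes, named after their values were seen, differed in their reads. Among AP-1 genes, Jun had 47 exonic reads, Jund 43 and Fosl2 39, while Fosb and Fosl1 had no cluster. The zinc finger genes Egr2 and Egr4 had no cluster. Nr4a2, the third Nr4a receptor, had 100 exonic reads in 4 clusters, of which 2 with 43 reads lay in its 3' UTR. Homer2 had 276 exonic reads in 7 clusters, of which 5 with 218 reads lay in the 3' UTR, and Homer3 had no cluster. On the scale of exon length, Homer2 had 21.9 reads per kb and Nr4a2 24.6.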
